A study of Mus musculus with 16 samples.

Results

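Ndufa4l2 was described together with 9 genes of the hypoxia response and of glycolysis: Pdk1, Hk2, Ldha, Slc2a1, Slc2a3, Pfkl, Bnip3, Egln3 and Vegfa. The group was drawn around Ndufa4l2, which was selected on its low level in TKO and 3B3-3l cells beside J1 on these same arrays, and the other 9 genes were taken from these pathways with results of the same arrays known. Differences in level between lines, and all differences of Ndufa4l2, are therefore given as a description without a test. Responses to 2i, and their differences between lines, were tested for the other 9 genes. A difference between responses equals the line difference in 2i minus that in serum. Since the genes were taken with results of these arrays known, its p-values are not independent of that choice. The RefSeq accessions of the 10 genes matched 16 of the 55681 non-control probes of the array. All 10 genes, of 21154 named on the array, were among the 13875 named genes tested. Ldha and Bnip3 had 3 probes each, Egln3 and Vegfa 2 each, and the other 6 genes 1 each. Ndufa4l2 lies on chromosome 10, from 127509274 to 127517154 (GRCm38.p6), and its probe was A_55_P1971244.

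Mouse embryonic stem cells (mESCs) were measured on 16 single-colour arrays of total RNA in 6 groups. J1 is a wild-type male line. TKO cells lack the DNA methyltransferase genes Dnmt1, Dnmt3a and Dnmt3b, and 3B3-3l cells lack Dnmt3a and Dnmt3b but express exogenous Dnmt3b and Dnmt3l constitutively. Both derive from J1, and the study set them against J1 to ask whether the response to 2i medium depends on DNA methylation. The serum groups, grown with 15% FCS and LIF at 500 U/ml, were J1-serum (4 arrays), TKO-serum (2) and 3B3-3l-serum (2). The 2i groups J1-2i (3 arrays), TKO-2i (3) and 3B3-3l-2i (2) were kept for 2 weeks without serum in the MEK inhibitor PD0325901 at 1 µM, the GSK3 inhibitor CHIR99021 at 3 µM and LIF at 1000 U/ml. J1 in serum was the only culture on feeder cells, which were inactivated SNLP cells; all other cultures grew on gelatin. The labels do not say whether replicates were separate cultures, so p-values measure the spread between these samples.

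Cells short of oxygen stabilise the alpha subunits of hypoxia-inducible factor (HIF), which are otherwise marked by prolyl hydroxylases for destruction through the VHL protein, and HIF then raises genes of glucose uptake, glycolysis and reduced mitochondrial respiration. Ndufa4l2 encodes a small mitochondrial protein induced by HIF and related to the respiratory chain subunit Ndufa4. mESCs are known for a high rate of glycolysis also with oxygen present.

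Each value is the log2 signal of a probe after subtraction of its array's 75th percentile on that scale, so a difference of 1 is 2-fold, and levels are compared within a probe only. A change was called, and is written as a rise or a fall, if it reached 2-fold with an adjusted p no higher than 0.05 for at least 1 probe of the gene. A gene is given by its probe of highest mean unless another is named. The 75th percentile lay between 1019 and 1835 intensity units, and the share of spots well above background ran from 39.7% to 49% over the arrays. The arrays lay on 3 slides. J1-serum replicate 1 and all 3B3-3l arrays shared slide 3, and the other J1 arrays and all TKO arrays were on slides 1 and 2. J1-serum replicate 1 had the brightest 75th percentile and stood apart from the other 3 J1-serum arrays for some of the genes, as given below. Of the targeted genes, Dnmt1 was at 1.79 in J1-serum and -1.69 in TKO-serum, still above background. Dnmt3a was well above background on all J1 arrays and on no TKO or 3B3-3l array. Of 3 Dnmt3b probes, A_55_P1975903 was higher in 3B3-3l-serum (5.52) than in J1-serum (2.95) and the other two were lower. All 8 mESC markers checked were well above background in every group. The summed signal of 15 fibroblast markers, in units of the 75th percentile, was 22.5 to 29.4 in J1-serum, 9.22 to 11.5 in 3B3-3l-serum, 4.32 to 5.2 in TKO-serum and 1.66 to 3.75 in the 2i groups. Of the 15, 8 were well above background on all J1-serum arrays and 5 (Fbn1, Col6a2, Lum, Prrx1 and Col5a2) on none. The part of feeder cell RNA in the J1-serum values of the 10 genes was not tested, and fewer cells of a type cannot be told apart from less RNA per cell.

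RefSeq promoters, from 250 bases before to 50 after a start site (GRCm38.p6), were at hand for 8 of the 10 genes, all but Ndufa4l2 and Slc2a3. They are shown for Egln3 and Bnip3, which fell in 2i in both J1 and TKO, for Pdk1, which fell in TKO, and for Ldha, which fell in neither. Each is read 5′ to 3′ on the strand of its gene, and capitals mark the core of the HIF binding motif, ACGTG or its variant GCGTG, on either strand. A palindrome that holds ACGTG on both strands counts as 2 matches.
Egln3, chr12:54203825-54204124, minus strand: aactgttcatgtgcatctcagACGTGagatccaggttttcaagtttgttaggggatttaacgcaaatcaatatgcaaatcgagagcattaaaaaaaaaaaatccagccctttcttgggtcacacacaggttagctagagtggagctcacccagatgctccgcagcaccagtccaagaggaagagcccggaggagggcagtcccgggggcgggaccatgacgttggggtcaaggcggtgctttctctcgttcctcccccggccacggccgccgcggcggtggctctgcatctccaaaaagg
Bnip3, chr7:138909457-138909756, minus strand: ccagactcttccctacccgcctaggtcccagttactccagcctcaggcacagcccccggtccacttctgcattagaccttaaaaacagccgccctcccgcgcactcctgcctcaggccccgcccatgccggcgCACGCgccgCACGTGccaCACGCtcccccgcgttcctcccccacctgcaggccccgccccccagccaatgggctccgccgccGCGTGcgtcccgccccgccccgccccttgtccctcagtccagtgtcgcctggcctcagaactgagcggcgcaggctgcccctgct
Pdk1, chr2:71872974-71873273, plus strand: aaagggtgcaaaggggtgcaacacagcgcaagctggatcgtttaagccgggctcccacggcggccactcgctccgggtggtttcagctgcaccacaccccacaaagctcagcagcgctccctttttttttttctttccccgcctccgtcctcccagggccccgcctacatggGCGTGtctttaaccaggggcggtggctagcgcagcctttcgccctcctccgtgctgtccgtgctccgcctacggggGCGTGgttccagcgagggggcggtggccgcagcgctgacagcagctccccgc
Ldha, chr7:46845554-46845853, plus strand: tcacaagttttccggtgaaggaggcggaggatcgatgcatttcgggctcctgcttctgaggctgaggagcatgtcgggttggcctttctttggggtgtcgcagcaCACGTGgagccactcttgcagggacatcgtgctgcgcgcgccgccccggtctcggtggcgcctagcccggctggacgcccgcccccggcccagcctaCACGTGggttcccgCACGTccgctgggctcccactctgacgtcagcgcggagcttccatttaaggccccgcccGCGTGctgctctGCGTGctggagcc
The Egln3 promoter held 1 match, Bnip3 5, Pdk1 2 and Ldha 7. Of the 11 promoters of the 8 genes 9 held a match, beside 43.8% of 32851 promoters of the same length. Each gene had at least 1 such promoter, a count by gene that has no share of all genes beside it. The promoters printed held 16 CpGs in Egln3, 27 in Bnip3, 25 in Pdk1 and 30 in Ldha, against a median of 7 over all promoters. Both motifs contain a CpG, and the shares of matches were not adjusted for CpG content. The first start site is printed for Pdk1 and Ldha; the second held 0 matches and 2 CpGs in Pdk1, and 2 matches and 13 CpGs in Ldha. A match is a run of letters and not a measured binding site.

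Ndufa4l2 was well above background on all 16 arrays. In J1-serum its level was 3.93, 2.95, 3.27 and 3.24 on the 4 arrays, the first being replicate 1, and in J1-2i it was 1.84, 1.85 and 1.98. In TKO it was 0.34 and 0.19 in serum and -1.94, -1.90 and -1.73 in 2i. In 3B3-3l it was -1.85 and -1.47 in serum and -0.15 and 0.01 in 2i. J1 arrays were above all others in both media, and no serum array overlapped a 2i array of its line. In order, the group means were 3.35 ± 0.42 in J1-serum (SD, n = 4), 1.89 ± 0.08 in J1-2i (n = 3), 0.26 ± 0.11 in TKO-serum (n = 2), -0.07 ± 0.12 in 3B3-3l-2i (n = 2), -1.66 ± 0.27 in 3B3-3l-serum (n = 2) and -1.85 ± 0.11 in TKO-2i (n = 3). Only the last pair overlapped.

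**Figure D1:**
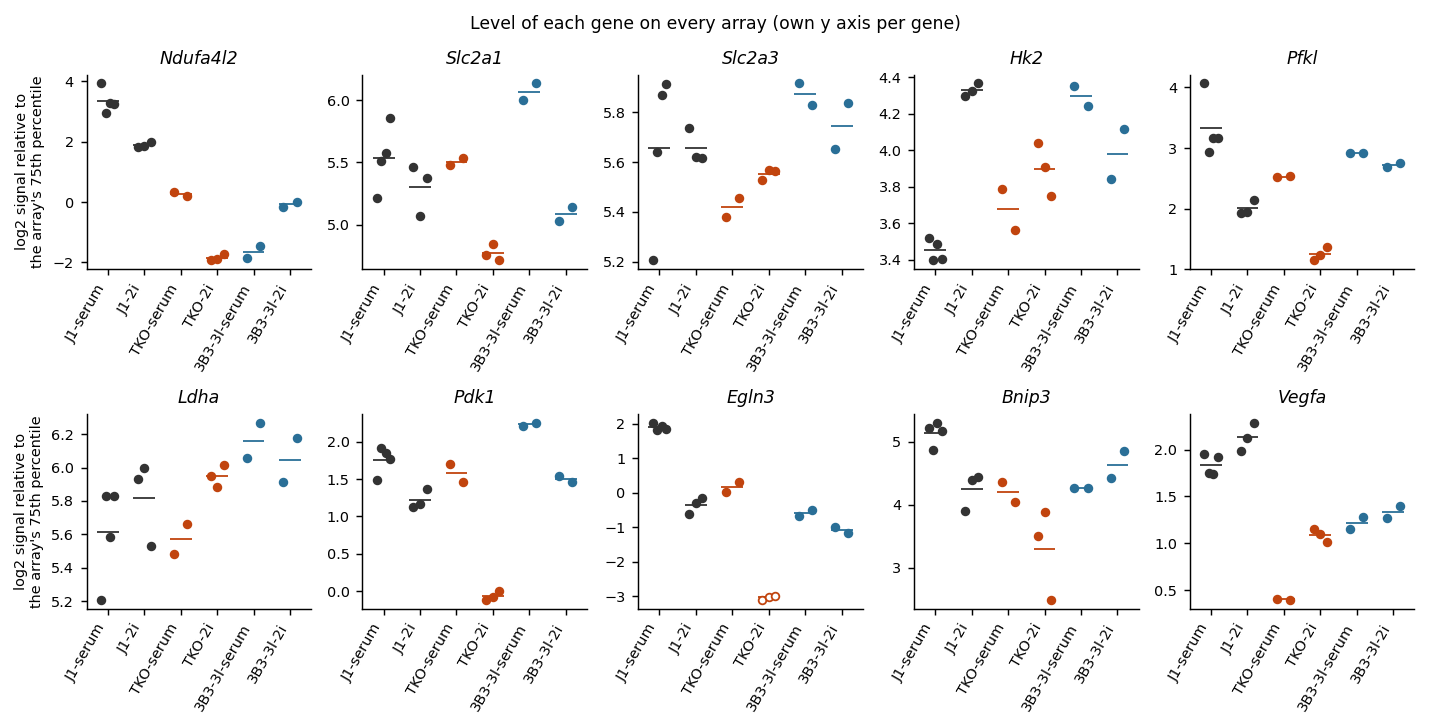
Log2 signal less the array's 75th percentile (y axis, a separate scale for each gene) for the 6 groups (x axis). Each point is 1 array, lines are group means, and open points are arrays on which the probe was not well above background. Ndufa4l2 lay highest in J1-serum, between 2.95 and 3.93, and lowest in TKO-2i, and Egln3 was not well above background in TKO-2i.

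In J1 and in TKO the 2i arrays lay below the serum arrays for Ndufa4l2, and in 3B3-3l they lay above them. The log2 difference between 2i and serum was -1.46 (SE 0.19) in J1, 2.74-fold, and -2.11 (SE 0.22) in TKO, 4.33-fold. In 3B3-3l it was 1.59 (SE 0.24), 3-fold, on arrays that all lay on slide 3. Within slide 1 the difference was -1.34 in J1 and -2.07 in TKO, and within slide 2 it was -1.1 in J1. The response of 3B3-3l exceeded that of J1 by 3.04 (SE 0.31) on the log2 scale and the response of TKO minus that of J1 was -0.66 (SE 0.29). All of these rest on levels that chose the gene, so no p-value is given.

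Its paralog Ndufa4, a subunit of the respiratory chain, was not called in 2i in any line. Ndufa4 had group means from 5.32 to 5.76, and its 2i difference was 0.07 in J1 (adjusted p = 0.69), 0.31 in TKO (adjusted p = 0.18) and 0.01 in 3B3-3l (adjusted p = 0.98). Its probe was saturated on 1 array each of J1-serum and 3B3-3l-serum.

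In J1, 2i lowered 3 of the other 9 genes, Egln3, Bnip3 and Pfkl, and raised 0, while over all genes 13.7% were called lower and 11.6% higher by limma. At an unadjusted p under 0.05 and with no fold limit, 4 of the 9 were lower and 2 higher, beside 29.7% and 35.6% of all genes. In TKO, 2i lowered 4 of the 9, Egln3, Bnip3, Pfkl and Pdk1, and raised 0, beside 10.1% of all genes called lower and 7.65% higher, with 6 lower and 1 higher at an unadjusted p under 0.05 (23.4% and 28.8% of all genes). In 3B3-3l, limma called 0 of the 9 higher and 0 lower, beside 6.32% of all genes called higher and 8.59% lower, with 1 higher and 4 lower at an unadjusted p under 0.05 (23.5% and 21.8% of all genes). The median log2 difference of the 10 genes, which include Ndufa4l2, was -0.39 in J1, -0.82 in TKO and -0.16 in 3B3-3l. Without Ndufa4l2 the middle value of the 9 was -0.24 in J1 and -0.73 in TKO (Slc2a1) and -0.20 in 3B3-3l (Pfkl). The median of all genes was 0.06, 0.08 and 0.01.

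**Figure D2:**
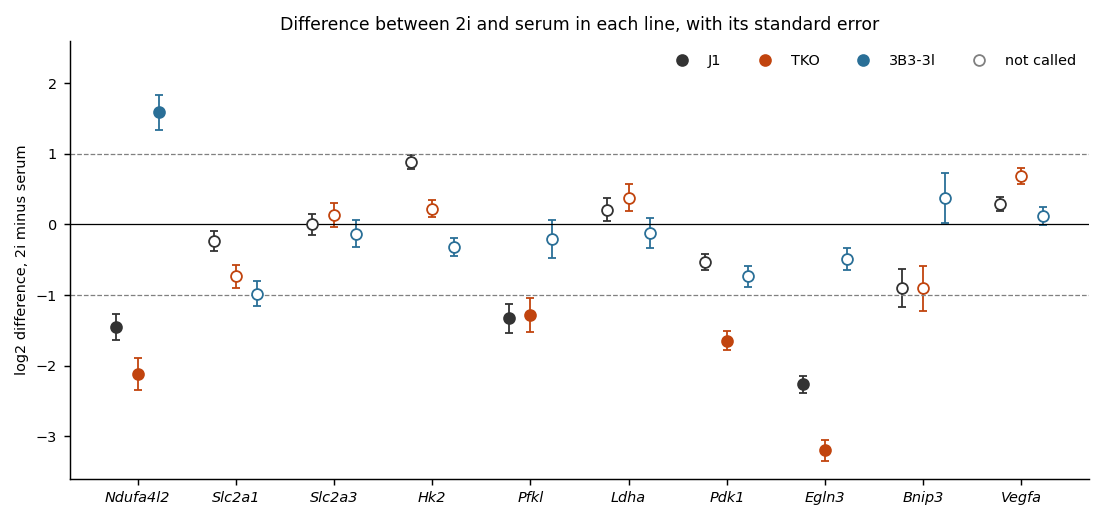
Log2 difference between 2i and serum (y axis) for each of the 10 genes (x axis, probe of highest mean) in J1, TKO and 3B3-3l. Bars are standard errors of the limma fit, filled points passed the limits of a call, which for Ndufa4l2 is a description, and dashed lines mark 2-fold. Ndufa4l2 lay at -1.46 in J1, -2.11 in TKO and 1.59 in 3B3-3l, and Egln3 at -2.26, -3.20 and -0.49.

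Of the glucose transporters, neither was called in 2i in any line. Slc2a1 (GLUT1) lay between 5.21 and 5.85 in J1-serum and between 5.07 and 5.46 in J1-2i, and these ranges overlapped. In TKO it was 5.48 and 5.53 in serum and 4.75, 4.84 and 4.71 in 2i, a difference of -0.73 (SE 0.16, adjusted p = 0.004) that was under 2-fold. In 3B3-3l it was 6.0 and 6.13 in serum and 5.03 and 5.14 in 2i, a difference of -0.98 (SE 0.18, adjusted p = 0.0013), 1.97-fold and so just under the limit. The Slc2a1 probe was saturated on 5 of the 16 arrays, all of them serum arrays. Slc2a3 (GLUT3) kept within 5.20 and 5.92 on all arrays, was saturated on 6, and its 2i differences ran from -0.13 to 0.13. For both transporters J1-serum replicate 1 gave the lowest of the 4 J1-serum values, saturated in each case.

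Among the glycolytic enzymes, Pfkl fell in 2i in J1 and TKO, and Hk2 and Ldha were not called. Pfkl encodes the liver subunit of phosphofructokinase, the enzyme of the committed step of glycolysis. Its level was 4.07, 2.94, 3.17 and 3.16 in J1-serum and 1.93, 1.95 and 2.15 in J1-2i, with replicate 1 of J1-serum well above the other 3. The difference in J1 was -1.33 (SE 0.21, adjusted p = 0.00014), and -1.08 without that array. In TKO, Pfkl was 2.52 and 2.53 in serum and 1.15, 1.23 and 1.36 in 2i, a difference of -1.28 (SE 0.25, adjusted p = 0.0013). On the 3B3-3l arrays it was 2.92 and 2.91 in serum and 2.68 and 2.75 in 2i, a difference of -0.20 (adjusted p = 0.71).

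Hk2, which traps glucose in the cell as glucose 6-phosphate, was 3.52, 3.40, 3.49 and 3.40 in J1-serum and 4.30, 4.32 and 4.37 in J1-2i. These groups did not overlap, and the difference of 0.88 (SE 0.10, adjusted p = 9.5e-06) was 1.84-fold and under the limit. Scaled to the array median it was 1.01 (adjusted p = 1.9e-05) and past the limit. In TKO the Hk2 difference was 0.22 (SE 0.12, adjusted p = 0.19), and in 3B3-3l it was -0.32 (SE 0.13, adjusted p = 0.099), with levels of 4.35 and 4.24 in serum and 3.84 and 4.12 in 2i. Ldha, the lactate dehydrogenase subunit that turns pyruvate to lactate, was saturated on 15 of 16 arrays on its leading probe, and its 2i differences ran from -0.12 to 0.38. A saturated spot can understate a change. The other 2 Ldha probes were saturated on 6 and 2 arrays, and their 2i differences ran from -0.49 to -0.03 with 0 calls.

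Pdk1 encodes a kinase that shuts off pyruvate dehydrogenase and so the entry of pyruvate into the mitochondrial cycle. It was 1.49, 1.92, 1.85 and 1.76 in J1-serum and 1.12, 1.17 and 1.37 in J1-2i, a difference of -0.54 (SE 0.11, adjusted p = 0.0015), under 2-fold. In TKO it was 1.71 and 1.46 in serum and -0.12, -0.08 and 0.00 in 2i, a fall of 3.14-fold (log2 difference -1.65, SE 0.13, adjusted p = 9.3e-07). On the 3B3-3l arrays it was 2.22 and 2.25 in serum and 1.54 and 1.46 in 2i, a difference of -0.73 (SE 0.15, adjusted p = 0.0024). Every 2i array lay below every serum array of its line, and the difference passed 2-fold in TKO but not in J1 or 3B3-3l.

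Egln3, a prolyl hydroxylase that marks HIF for destruction and is itself raised by HIF, had the largest 2i difference of the 10 genes in J1. It was 2.04, 1.84, 1.93 and 1.84 in J1-serum and -0.62, -0.29 and -0.15 in J1-2i, a fall of 4.8-fold (log2 difference -2.26, SE 0.12, adjusted p = 9.1e-09). In TKO it was 0.03 and 0.31 in serum, and in 2i all 3 arrays were not well above background. It fell at least 9.18-fold in the main fit (adjusted p = 6.2e-09). Over the alternatives its log2 difference in TKO ran from -3.34 to -2.44. In 3B3-3l it was -0.67 and -0.50 in serum and -0.98 and -1.17 in 2i, a difference of -0.49 (SE 0.16, adjusted p = 0.039), under 2-fold. The second Egln3 probe gave -2.25 in J1, a fall of at least 7.74-fold in TKO in the main fit, and no call in 3B3-3l. Its TKO difference ran from -3.73 to -2.30 over the alternatives.

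Bnip3, a mitochondrial protein that sets off removal of mitochondria by autophagy, had 3 probes that disagreed in size. The probe of highest mean, A_55_P2091473, was not called in any line: its difference was -0.90 in J1 (SE 0.27, adjusted p = 0.015), -0.91 in TKO (SE 0.32, adjusted p = 0.048) and 0.37 in 3B3-3l (SE 0.35, adjusted p = 0.55). Its TKO-2i values of 3.50, 3.88 and 2.49 were widely spread, and the difference was -0.51 (adjusted p = 0.12) without replicate 3 and -1.20 (adjusted p = 0.01), past the limit, without replicate 2. A_55_P2091472 was 4.71, 4.72, 5.22 and 5.19 in J1-serum and 4.35, 4.38 and 4.44 in J1-2i, a difference of -0.57 under 2-fold. In TKO that probe was 3.91 and 4.05 in serum and 1.60, 1.76 and 1.92 in 2i, a fall of 4.65-fold (log2 difference -2.22, SE 0.17, adjusted p = 5.7e-07). A_66_P120736, the dimmest of the 3, was 1.54, 1.13, 1.56 and 1.49 in J1-serum and -0.47, -0.12 and 0.01 in J1-2i, a fall of 3.08-fold (adjusted p = 2.5e-05). In TKO that probe fell at least 7.8-fold in the main fit (adjusted p = 7.5e-07), since no TKO-2i array was well above background. Its difference there ran from -3.26 to -2.20 over the alternatives. On all 3 probes the means of J1 and TKO were lower in 2i, and none of the 3 was called in 3B3-3l, where the differences were -0.18 to 0.37.

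Vegfa, the angiogenic growth factor, was not called in 2i in any line. Its leading probe was 1.96, 1.75, 1.74 and 1.92 in J1-serum and 1.98, 2.13 and 2.29 in J1-2i, a difference of 0.29 (SE 0.10, adjusted p = 0.024). In TKO it was 0.41 and 0.40 in serum and 1.15, 1.10 and 1.02 in 2i, a difference of 0.68 (SE 0.11, adjusted p = 0.00048), under 2-fold. The second Vegfa probe disagreed in sign in J1 (-0.38, adjusted p = 0.095, and -0.64, adjusted p = 0.0027, without J1-2i replicate 1, and -0.25 or -0.26 without replicate 2 or 3) and gave 0.16 in TKO and 0.57 in 3B3-3l.

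**Figure D3:**
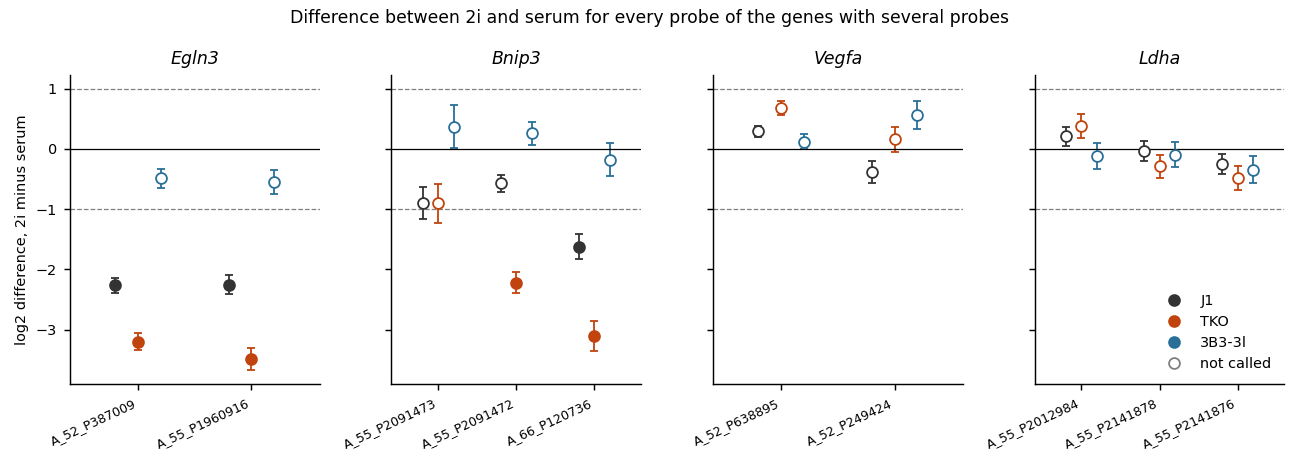
Log2 difference between 2i and serum (y axis) for every probe (x axis) of the 4 genes with several probes, in J1, TKO and 3B3-3l, with standard errors. Filled points were called and dashed lines mark 2-fold. In TKO the 2 Bnip3 probes that were well above background on all arrays lay at -0.91 and -2.22, while both Egln3 probes and Bnip3 A_66_P120736, not well above background in TKO-2i, are drawn at their fitted values.

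The response to 2i differed between lines for several of the other 9 genes, tested as the response of TKO or of 3B3-3l minus that of J1. J1 alone left feeder cells on the move to 2i, so line and feeder removal cannot be told apart in these differences. The fibroblast markers tested had medians of 2.54 for TKO and 2.56 for 3B3-3l in the same differences. The part of feeder removal in the values of the 9 genes was not tested. For TKO, 3 of the 9 were called lower, Bnip3, Egln3 and Pdk1, and 0 higher, beside 8.61% of all genes called lower and 8.85% higher. At an unadjusted p under 0.05, 5 of the 9 were lower and 1 higher, beside 22.8% of all genes in either direction. The difference for Pdk1 was -1.11 (SE 0.17, adjusted p = 0.00047), and -0.99, just under 2-fold, without TKO-serum replicate 1. Bnip3 differed by -1.65 on A_55_P2091472 (SE 0.22, adjusted p = 0.00015) but by -0.01 on the probe of highest mean. A_66_P120736, which no TKO-2i array had well above background, gave -1.47 and lost its call with the normexp background correction (-0.65, adjusted p = 0.082). For Egln3 the second probe gave -1.24 (SE 0.24, adjusted p = 0.0022), and -0.25 (adjusted p = 0.41) with normexp, and the first gave -0.93, under 2-fold. Both rest on TKO-2i arrays that were not well above background.

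For 3B3-3l, 3 of the 9 were called higher, Bnip3, Egln3 and Pfkl, and 1 lower, Hk2, beside 10.1% of all genes called higher and 9.9% lower. At an unadjusted p under 0.05, 4 of the 9 were higher and 2 lower, beside 22.2% and 25.4% of all genes. Egln3 differed from J1 by 1.78 (SE 0.20, adjusted p = 3.1e-05) on its first probe. Its second probe gave 1.71, against 3B3-3l-2i arrays that were not well above background. Bnip3 differed by 1.45 on A_66_P120736 (SE 0.34, adjusted p = 0.0068), and the 2 brighter probes gave 1.27 and 0.83 with no call. Hk2 differed by -1.20 (SE 0.16, adjusted p = 0.00015), the response being 0.88 in J1 and -0.32 in 3B3-3l. Pfkl differed by 1.13 (SE 0.34, adjusted p = 0.026), a call that was kept in 16 of 25 alternatives. It was 0.88, under 2-fold, with slide as a block and without J1-serum replicate 1, and the adjusted p was 0.052 to 0.075 without filter on dim probes and without J1-2i replicate 1 or 2 or any one of the 3B3-3l arrays. The 3B3-3l response lies within slide 3 and the J1 response mostly within slides 1 and 2.

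In serum the J1 mean of Ndufa4l2 was 8.49-fold that of TKO and 32.1-fold that of 3B3-3l, and in 2i it was 13.4-fold that of TKO and 3.89-fold that of 3B3-3l. These are log2 differences of -3.09, -5.00, -3.74 and -1.96, which are the values that chose the gene and have no test. Since the J1 arrays are shared, the comparisons of TKO and of 3B3-3l with J1 are not independent of each other. On slide 3, which holds J1-serum replicate 1 and both 3B3-3l-serum arrays, the serum difference was -5.59. J1-2i and 3B3-3l-2i share no slide, so that difference can be set against a slide effect only through J1-serum.

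Of the other 9 genes, 3 were past the limits of a call below J1 in TKO-serum (Egln3, Bnip3 and Vegfa) and these 3 also in 3B3-3l-serum, with 0 above in either. The genes were chosen with such differences known, so these counts are a description and nothing is read from them. Over all genes 9.87% were called lower and 9.21% higher in TKO, and 11.1% lower and 11.7% higher in 3B3-3l. In 2i, 4 of the 9 were past the limits below J1 in TKO (Egln3, Bnip3, Vegfa and Pdk1) and 2 in 3B3-3l (Egln3 and Bnip3), with 0 above. There 4% of all genes were called lower and 4.48% higher in TKO, and 7.71% lower and 9.28% higher in 3B3-3l. With slide as a term in the fit, 0 of the 9 stayed past the limits for 3B3-3l in 2i, where Ndufa4l2 was at -2.74.

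**Figure D4:**
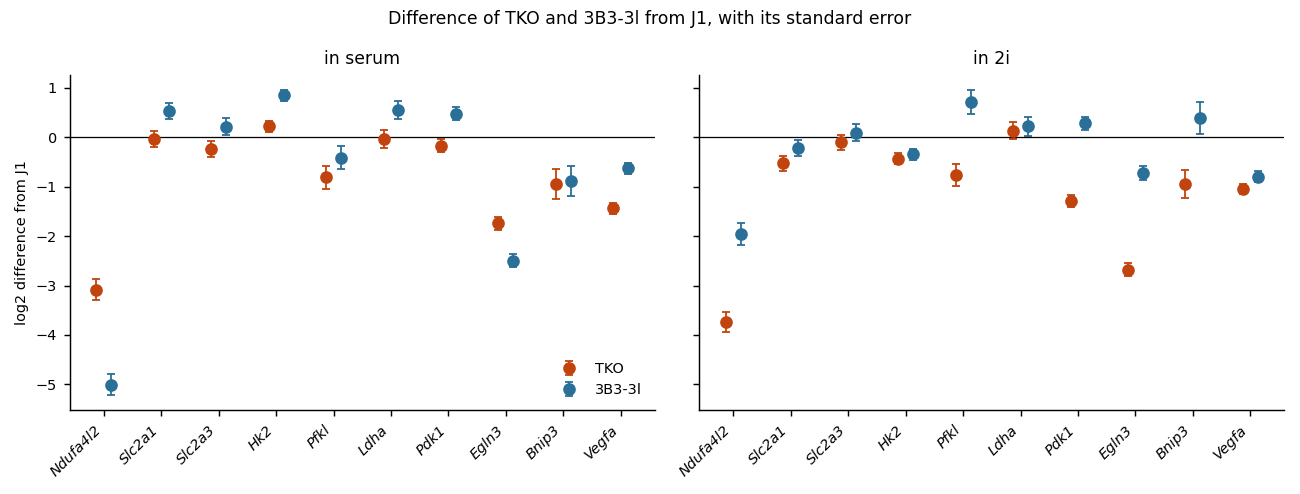
Log2 difference of TKO and of 3B3-3l from J1 (y axis) in serum and in 2i for the 10 genes (x axis, probe of highest mean), with standard errors. Points below 0 are lower than J1. Ndufa4l2 lay at -3.09 and -5.00 in serum and at -3.74 and -1.96 in 2i, and Slc2a3 ran from -0.24 to 0.22.

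Of the other 9 genes, Egln3 had the highest correlation with Ndufa4l2. Its log2 difference from J1 was -1.74 in TKO-serum and -2.50 in 3B3-3l-serum. In 2i the J1 mean was at least 6.4-fold that of TKO in the main fit, and 3B3-3l differed by -0.72. Over the alternatives the difference of Egln3 in TKO-2i from J1 ran from -2.81 to -1.98. Over the 16 arrays its Pearson r with Ndufa4l2 was 0.87, against 0.73 for Bnip3, 0.66 for Vegfa, 0.61 for Pfkl, 0.42 for Pdk1, 0.22 for Slc2a1, -0.08 for Slc2a3 and -0.44 for Hk2. No r is given for Ldha, saturated on 15 arrays, and saturation on 5 and 6 arrays also limits that of Slc2a1 and Slc2a3. Arrays of a group share their line and medium, so these r are descriptions. Vegfa differed from J1 by -1.44 in TKO-serum and by -0.63 in 3B3-3l-serum on its leading probe, and by -1.02 in 3B3-3l-serum on the second. Bnip3 differed by -0.94 in TKO-serum and by -0.88 in 3B3-3l-serum on its leading probe, and by -1.91 in 3B3-3l-serum on A_55_P2091472. A_66_P120736, the probe that carried its count in TKO-serum, gave -1.68 there and -2.30 in 3B3-3l-serum. Among the enzymes, 3B3-3l-serum differed from J1-serum by 0.85 for Hk2, 0.48 for Pdk1 and -0.42 for Pfkl, each under 2-fold. The Pfkl difference was -0.18 without J1-serum replicate 1 and -1.15, past 2-fold, with slide as a block. The leading Ldha probe was saturated on all arrays of both groups, and the other 2 Ldha probes gave 0.22 and 0.13.

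The 5 genes most like Ndufa4l2 over the 16 arrays, of 2870 whose group means spanned at least 2 on the log2 scale, were Pdk4 (r = 0.97), Pgm1 (r = 0.97), Dhrs7 (r = 0.95), Hacd4 (r = 0.94) and Plod2 (r = 0.94). Egln3 was 38th in that order. Pdk4 encodes another kinase of pyruvate dehydrogenase, and its mean was -0.11 in J1-serum, -1.06 in J1-2i and -2.12 in TKO-serum, and it was well above background on 1 of 3 TKO-2i arrays and on 0 of 4 3B3-3l arrays, so its r rests partly on dim values. Pgm1, a phosphoglucomutase that links glucose 6-phosphate to glycogen, was at 4.02 in J1-serum, 3.08 in J1-2i, 2.42 in TKO-serum, 1.13 in TKO-2i, 1.93 in 3B3-3l-serum and 2.00 in 3B3-3l-2i. Plod2, a collagen lysyl hydroxylase and HIF target, was at 1.65 in J1-serum and 0.46 in J1-2i. In 3B3-3l it was at -0.18 in serum and -0.17 in 2i.

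Of 22 other HIF targets, 21 were tested. The counts of this and the following lists in 2i stand beside 13.7% of all genes called lower and 11.6% higher in J1, 10.1% and 7.65% in TKO, and 8.59% and 6.32% in 3B3-3l, and their medians beside 0.06, 0.08 and 0.01. In J1, 8 of the 21 fell and 2 rose, with a median of -0.71. Car12, a carbonic anhydrase, fell by 3.49 on the log2 scale (adjusted p = 6.4e-10) and the vasoactive peptide gene Adm fell by 3.09 (adjusted p = 3.5e-07). Each was well above background on 2 of 3 J1-2i arrays. Stc2 rose by 2.47 (adjusted p = 6e-10) and the histone demethylase gene Kdm3a by 1.25 (adjusted p = 2.6e-05). In TKO 8 fell and 2 rose, with a median of -0.38. Car12 fell at least 5.02-fold and the lactate exporter gene Slc16a3 fell by 2.45 (adjusted p = 2.4e-08), while Pfkfb4 rose by 1.41 (adjusted p = 3.8e-07). In 3B3-3l 5 fell and 2 rose, with a median of -0.28. Pfkfb3 fell by 1.73 (adjusted p = 2.1e-06), Ddit4 fell by 1.32 and Slc16a3 fell by 1.57 (adjusted p = 3.6e-06), while Pfkfb4 rose by 1.24 (adjusted p = 4.1e-06). The calls of Adm and Car9 in TKO and of Car12, Adm and Car9 in 3B3-3l, which the counts include, rest on probes not well above background on all arrays of either group, so no size is given. Both Pfkfb genes encode enzymes that set the activator of phosphofructokinase. Pfkfb4 was well above background on 1 of 2 serum arrays in TKO and in 3B3-3l. Set against J1 as a description, 12 of the 21 were past the limits lower and 2 higher in TKO-serum, and 11 lower and 3 higher in 3B3-3l-serum, beside 9.87% lower and 9.21% higher, and 11.1% and 11.7%, of all genes.

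**Figure D5:**
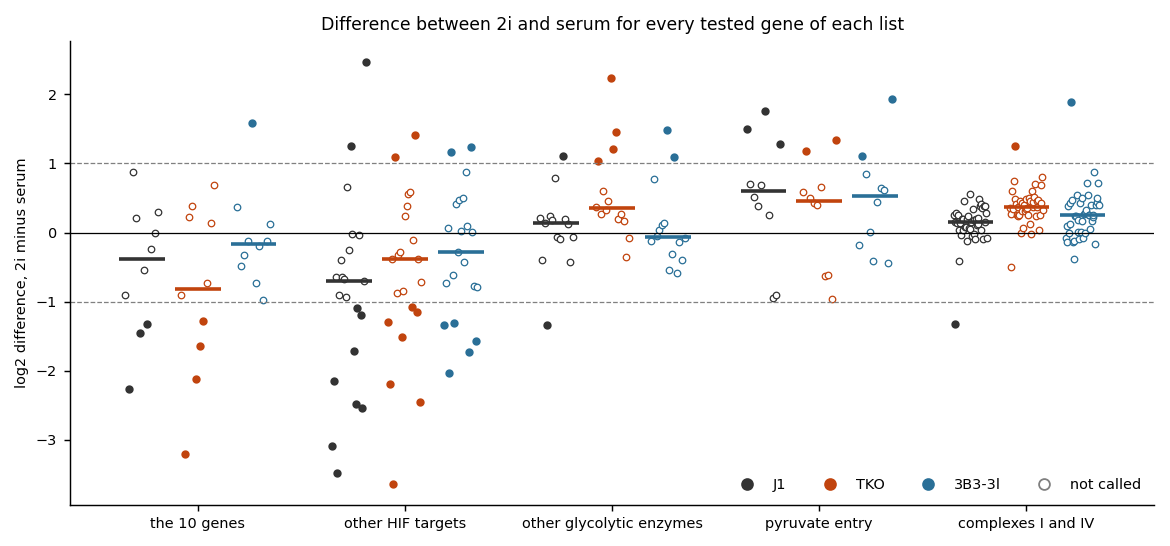
Log2 difference between 2i and serum (y axis) for every tested gene of 5 lists (x axis) in J1, TKO and 3B3-3l, by the probe of highest mean. Bars are medians, filled points were called on that probe and dashed lines mark 2-fold; counts in the text also take calls on other probes. The median of the other HIF targets lay at -0.71 in J1, -0.38 in TKO and -0.28 in 3B3-3l, and that of complexes I and IV at 0.15, 0.37 and 0.25.

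The 14 other glycolytic enzymes did not fall together in 2i. In J1 1 rose, Pfkp (by 1.11, adjusted p = 5.9e-06), which encodes the platelet subunit of phosphofructokinase, and 1 fell, Eno2 (-1.34, adjusted p = 9.8e-06), with a median of 0.13. In TKO 5 of the 14 rose and 0 fell, beside 7.65% and 10.1% of all genes: Hk1 (by 2.24, adjusted p = 1.1e-07), Pfkm (by 1.45, adjusted p = 9e-08), Ldhb (by 1.21), Aldoc (by 1.04) and, on a dimmer probe, Pfkp (by 1.79). The median was 0.35 in TKO, against 0.08 over all genes, and -0.06 in 3B3-3l. In 3B3-3l 2 rose, Hk1 (by 1.48, adjusted p = 1.4e-05) and Pfkp (by 1.09, adjusted p = 0.00019). The phosphofructokinase subunit genes thus moved in opposite directions in J1 and TKO, with Pfkl lower and Pfkp or Pfkm higher.

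Of 11 genes that govern the entry of pyruvate into mitochondria, 10 were tested. In J1 3 rose and 1 fell, with Pdhx at 1.76 (adjusted p = 2.8e-08) and Dlat at 1.5 (adjusted p = 1.2e-06), both parts of the pyruvate dehydrogenase complex. Of the phosphatase genes that switch this complex back on, Pdp2 rose by 1.28 and a dimmer probe of Pdp1 fell by 1.38 (adjusted p = 1.6e-05). In TKO and in 3B3-3l 2 rose each, Pdp2 (by 1.34 in TKO and 1.94 in 3B3-3l) and the pyruvate carrier gene Mpc1 (by 1.18 in TKO and 1.1 in 3B3-3l). The medians of these genes were 0.60, 0.46 and 0.53. Of 43 subunits of complexes I and IV, 0 rose and 1 fell in J1 (Cox4i2, -1.32, adjusted p = 0.019). Cox4i2 was well above background on 2 of 3 J1-2i arrays. In TKO 1 rose (Cox7a1, by 1.25) and 0 fell, and in 3B3-3l 2 rose (Cox7a1, by 1.89, and Ndufv3, by 1.08) and 0 fell, with medians of 0.15, 0.37 and 0.25. Of 12 other glucose and lactate transporters 6 were tested. The fructose transporter gene Slc2a5 fell by 1.89 in J1 (adjusted p = 2.8e-06), where 1 of 3 2i arrays was well above background. It fell at least 3.96-fold in TKO, and its call in 3B3-3l rests on 1 array well above background. The insulin-responsive transporter gene Slc2a4 rose at least 2.12-fold in TKO.

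Of 9 genes of the HIF machinery 8 were tested. In J1 0 rose and 2 fell, in TKO 1 rose and 2 fell, and in 3B3-3l 1 rose and 1 fell. Hif1a, the broadly used alpha subunit, was not called in any line, at 0.19 in J1 (adjusted p = 0.2), -0.10 in TKO (adjusted p = 0.62) and -0.37 in 3B3-3l (adjusted p = 0.091). Epas1, which encodes the alpha subunit HIF-2, gave -0.61 in J1 (adjusted p = 0.039, and -0.37, adjusted p = 0.049, without J1-serum replicate 1), -0.37 in TKO (adjusted p = 0.32) and -0.53 in 3B3-3l (adjusted p = 0.23) on its probe of highest mean. Of its other probes, A_51_P250058 fell in J1 (-1.09, adjusted p = 3e-05) and the dim A_55_P2053988 fell in J1 and TKO. Neither was called in 3B3-3l, where A_51_P250058 was at 1.64 in serum and 1.55 in 2i. In TKO A_51_P250058 was at 2.45 in serum and 2.08 in 2i, with no call. Hif3a fell in all 3 lines, with -1.5 in J1 (adjusted p = 8.2e-08), -1.21 in TKO (adjusted p = 6.4e-06) and -1.42 in 3B3-3l (adjusted p = 5.1e-06). Vhl rose by 1.24 in TKO (adjusted p = 2.7e-07), and the gene called higher in 3B3-3l, Egln1, another HIF prolyl hydroxylase, was not well above background on any 3B3-3l array. In serum Hif1a was at 1.78 in J1, 2.25 in TKO and 2.57 in 3B3-3l, the reverse order of Ndufa4l2 there. Epas1 A_51_P250058 was at 2.65 in J1-serum, 2.45 in TKO-serum and 1.64 in 3B3-3l-serum, the same order as Ndufa4l2. The leading Epas1 probe was at 2.55, 2.45 and 3.47 in these groups, and the dim A_55_P2053988 at -1.22, -1.05 and -2.80.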

How the data were processed

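Total RNA of 16 mESC samples was hybridised, Cy3-labelled, to Agilent mouse 8x60K arrays. Per the file headers, the deposited scanner files hold the background-subtracted and detrended processed signal of Agilent Feature Extraction (version 11.5.1.1) as an intensity, with no normalization between arrays, and flags of 0 or 1 (unit other). A table of log2 values of 30170 probes, made by the authors, was used only as an alternative; in 13 of its 16 columns the closest scanner file was another replicate of the same group. Here the 75th percentile of each array was subtracted from log2 of the processed signal, taken over non-control spots that were not outliers. Saturated spots were kept. The fit took the 26993 probes that at least 1 group had well above background on all of its arrays. The 6 group means over all 16 arrays were fitted with limma (version 3.58.1, R 4.3.3), two-sided, with Benjamini-Hochberg adjustment over all probes tested, on which every adjusted p rests; the fit was tested on simulated data. Of the probes tested, 755 lacked a value on at least 1 array, where the fit used the others. Probes were named by RefSeq accession through an annotation of GRCm38.p6 (28026 probes of 21154 genes); the array grid was made on mm9, and printed coordinates are GRCm38.p6. Where a group was not well above background on any array, the fold is a bound. It sets the brighter mean against the higher of the dim signal and the lowest signal well above background. Such a bound holds for the main fit only, and equals the fitted fold where the dim signal was the higher on every array. The members and lists were chosen with earlier results of these data known, and no p-value is given for Ndufa4l2, although its 2i responses were planned as tests. Named were all 10 genes, in each list and 2i comparison the 2 largest called increases and the 2 largest called decreases among genes well above background on all arrays of at least 1 group compared, Ndufa4, Hif1a, Epas1, the Dnmt genes and the 5 genes most like Ndufa4l2; other list genes were named after their values were seen, to complete small counts. Alternatives changed the background correction, scaling, source, filter, fold limit, slide or replicate terms and left out each array. The number of arrays limits the precision.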

Additional observations from a re-analysis of the deposited data

Results flagged for a closer look

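Responses to 2i differed between lines for the genes below, as the log2 response of a line minus that of J1 in the same limma fit. J1 alone left feeder cells on the move to 2i, and these differences do not separate that from the line. For TKO, Pdk1 gave -1.11, Egln3 (A_55_P1960916) -1.24, and Bnip3 -1.65 on A_55_P2091472 and -1.47 on A_66_P120736. No TKO-2i array was well above background for A_55_P1960916 or A_66_P120736, which gave -0.25 and -0.65 with normexp and no call. The leading Bnip3 probe gave -0.01. For 3B3-3l, Hk2 gave -1.2, Pfkl 1.13, Egln3 1.78 and 1.71 on its 2 probes and Bnip3 1.45 on A_66_P120736. Ndufa4l2 gave 3.04 for 3B3-3l, all its 3B3-3l-2i arrays being above serum and all its J1-2i arrays below; this difference is given without a test, since the gene was chosen on levels that enter it.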

How the results depend on the processing

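Of 3676 values of the 16 probes under the alternatives, 0 called values changed sign, 26 lost their call and 67 gained one. The normexp correction, chosen after seeing the data, used the median spot signal because the files hold no mean signal. Among the counts of the 10 genes past the limits, which include Ndufa4l2 throughout, and of the genes most like it, 225 of 236 stayed within 1.5 times. With only probes well above background on all arrays, which leaves out both Egln3 probes and 1 of Bnip3, the count was 2 for 2i against serum in J1 and 2 for TKO against J1 in serum. Without the fold limit the counts were 7 for 2i in J1, 4 for 2i in 3B3-3l, 8 for TKO against J1 in 2i, 8 for 3B3-3l against J1 in serum and 6 for 3B3-3l against J1 in 2i, beside 59%, 34.3%, 29.5%, 57.3% and 48.5% of all genes. Array median scaling, which moved the median of all genes from 0.06 to 0.19 in J1 and from 0.01 to 0.13 in 3B3-3l, added Hk2 in J1 for a count of 5. With slide as a block the count for 3B3-3l against J1 in 2i was 1. Leaving out 1 array at a time gave 4 to 4 for 2i in J1, 5 to 5 in TKO and 1 to 2 in 3B3-3l (Slc2a1 was added without 3B3-3l-serum replicate 1 or 3B3-3l-2i replicate 2). It gave 4 to 4 and 5 to 5 for TKO against J1 in serum and 2i, 3 to 4 and 3 to 3 for 3B3-3l (Vegfa dropped out in serum without J1-serum replicate 1 or 3B3-3l-serum replicate 1), 2 to 3 for the response of TKO minus that of J1 (Pdk1 or Egln3 dropped out without TKO-serum replicate 1 or 2) and 4 to 5 for that of 3B3-3l (Vegfa stood in place of Pfkl without J1-2i replicate 1 or 3B3-3l-2i replicate 2). Of the 5 genes most like Ndufa4l2, 3 were among the first 5 after normexp and 5 under quantile, median and authors' table values.

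Same-numbered samples of different groups had a median r of -0.03 in their deviations (33 pairs, 6 over 0.1), and those of different number 0.01. Deviations in a group of 2 arrays mirror each other, so this cannot settle whether numbers pair samples. In 3B3-3l, same-numbered serum and 2i arrays had r = 0.29 and the others -0.29. The main fit did not pair samples. A replicate block gave counts of 4, 5 and 1 for 2i in J1, TKO and 3B3-3l and changed none of them. For 3B3-3l against J1 in 2i it gave 2, since Bnip3 A_55_P2091472 then lay just under the limit (-0.99).

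The Pfkl response of 3B3-3l against J1 kept its call in 16 of 25 alternatives, and Egln3 A_55_P1960916 for TKO in 22 of 25 (-0.25 after normexp). Bnip3 A_66_P120736 for TKO kept it in 24 of 25 (-0.65 after normexp). Saturation limits Ldha, Slc2a1 and Slc2a3, and signal near background limits Egln3 and Bnip3 in TKO-2i.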
